A study of Rattus norvegicus with 16 samples.

Results

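Axon guidance genes of the ephrin, Slit and netrin systems were followed through nerve injury in the rat. The set was every gene whose symbol names an ephrin, an Eph receptor, a Slit, a Robo, a netrin numbered up to 5, an Unc5 receptor, Dcc or neogenin. The rule looked at names only, not at values, and it found 39 of the 31038 genes in the deposited tables. They comprise 5 ephrin-A, 3 ephrin-B, 9 EphA, 5 EphB, 3 Slit, 4 Robo, 4 netrin and 4 Unc5 genes, with Dcc and Neo1.

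RNA came from rat sciatic nerve, either from the whole nerve or from Schwann cells, the glia of peripheral nerve, that had been purified from it. Both were taken from uncrushed nerves and from nerves crushed at postnatal day 18 and taken 3, 5 or 7 days later, with 2 libraries in each of the 8 groups. After a crush only the stretch beyond the crush was used, and in uncrushed animals the matching stretch, without a sham operation. Schwann cells were purified by immunopanning, in which dishes carrying antibodies against CD45 and Thy1 hold back leukocytes and fibroblasts and a dish against O4 then retains Schwann cells. By the study's methods each sample, of purified cells or whole nerve, pooled at least 10 nerves. The methods also give a lower yield of purified cells per uncrushed nerve than per crushed nerve. In the Schwann cell libraries, injury and which cells were recovered thus cannot be told apart. Nothing in the labels says whether the 2 samples of a group came from separate litters or operations, so the p-values measure the spread between these samples, which may be technical. The labels give postnatal day 18 for every group, so the age of the animals and the time after crush cannot be told apart. Whole nerve was not dissociated, so tissue and dissociation cannot be told apart in these 16 libraries. The study also sequenced dissociated nerve, which was not analysed here.

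Ephrins are cell surface ligands that bind Eph receptor tyrosine kinases on a neighbouring cell, and contact usually makes the growth cone or migrating cell withdraw. The A class ephrins are held by a lipid anchor and the B class cross the membrane, and binding can signal into both cells. Slits are large secreted proteins read by Robo receptors, mostly as repellents. Netrins are laminin-like proteins that attract through Dcc or neogenin and repel through Unc5 receptors. In the cut nerve, ephrin-B on fibroblasts is known to act on EphB2 of Schwann cells and to make them sort into the cords along which axons regrow.

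Promoter sequences were matched by symbol in a table from RefSeq (assembly GRCr8), which held 32 of the 39 members and not Efnb3, Epha4, Ntn1, Slit1, Slit2, Unc5c or Unc5d. The 250 bases before the annotated start are given, on the strand of the gene, for 1 ligand and 3 receptors whose RNA, as described further on, moved in both tissues. Capitals mark a match to the SOX motif ACAANG on either strand. Efnb1 lies at chrX:68297279-68297528 on the plus strand, Epha5 at chr14:24007872-24008121 on the plus strand, Ephb1 at chr8:111823760-111824009 on the minus strand and Ephb6 at chr4:71458382-71458631 on the plus strand.
Efnb1: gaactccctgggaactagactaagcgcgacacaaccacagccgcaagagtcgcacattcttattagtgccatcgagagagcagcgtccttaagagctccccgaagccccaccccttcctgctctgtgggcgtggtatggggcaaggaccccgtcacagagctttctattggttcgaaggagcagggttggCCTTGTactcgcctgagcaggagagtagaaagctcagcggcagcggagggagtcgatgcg
Epha5: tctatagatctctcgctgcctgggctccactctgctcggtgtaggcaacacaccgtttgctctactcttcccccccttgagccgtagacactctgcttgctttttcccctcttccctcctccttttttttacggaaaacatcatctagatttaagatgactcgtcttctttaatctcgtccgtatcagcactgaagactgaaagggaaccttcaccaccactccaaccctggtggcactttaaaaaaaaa
Ephb1: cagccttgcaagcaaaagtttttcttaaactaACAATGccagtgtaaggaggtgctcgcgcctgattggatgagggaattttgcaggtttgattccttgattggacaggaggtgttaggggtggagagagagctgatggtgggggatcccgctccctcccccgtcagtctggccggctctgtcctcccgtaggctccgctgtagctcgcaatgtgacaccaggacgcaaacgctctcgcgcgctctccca
Ephb6: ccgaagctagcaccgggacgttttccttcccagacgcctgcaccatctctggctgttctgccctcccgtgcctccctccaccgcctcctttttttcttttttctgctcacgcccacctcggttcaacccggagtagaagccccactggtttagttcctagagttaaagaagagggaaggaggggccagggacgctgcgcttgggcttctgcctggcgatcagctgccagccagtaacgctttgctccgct
The windows of the members were rich in G and C, with a median of 64.4% against 51.2% over 33469 promoters, and that of Epha5 was the lowest among the members at 47.6%. The GC box GGGCGG, searched on both strands, was in 18 of the 32 member windows (56.2%) and in 30.5% of all. The SOX motif was in 8 of 32 (25%) and in 36.9% of all, and the AP-1 motif TGANTCA was in 1 of 32, that of Epha10, and in 6.34% of all. Matches to the 3 motifs were counted apart, overlaps included, and describe letters only.

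Library depth ranged from 10555067 to 27562637 expected counts, the estimated number of fragments per gene summed over genes. Levels are given as FPKM, fragments per kilobase of transcript scaled to library size, which allows genes to be compared per length. Markers of other cells were present in the purified libraries to differing degrees. The summed FPKM of 11 leukocyte markers lay between 3.22 and 14.4 in Schwann cells, whereas in whole nerve it was 165 and 184 before crush, 698 and 722 on day 3, 425 and 443 on day 5 and 431 and 432 on day 7. That of 9 endothelial markers was between 1.63 and 6.11 in Schwann cells and 115 to 154 in whole nerve. Day 3 Schwann cell replicate 2 had the 14.4. Among Schwann cell libraries, the sum of 6 fibroblast markers was 311 and 327 in uncrushed cells and 152 to 251 after crush, most of it Col1a1, and the sum of 6 pericyte and smooth muscle markers was 55.0 and 65.4 in uncrushed cells and 9.92 to 21.9 after crush. The fibroblast sum was 3970 to 5730 in whole nerve and the pericyte sum 257 to 409. In uncrushed Schwann cells the largest part of the pericyte sum was Pdgfrb, at 33.7 and 29.1 FPKM, above uncrushed nerve at 8.58 and 10.5. Tagln (14.1 and 16.7) and Cspg4 (3.53 and 3.5) lay near uncrushed nerve (17.3 and 13.8, 3.49 and 3.48). Rgs5, Acta2 and Myh11, at 0.47 to 12.4, lay below uncrushed nerve, at 5.91 to 246. A list of 5 perineurial markers summed to 115 and 119 in uncrushed Schwann cells, to between 58.0 and 66.9 after crush and to 152 to 283 in whole nerve. Most of the perineurial sum in Schwann cells was Itgb4, at 98.8 and 95.3 FPKM before crush and 42.0 to 52.0 after, and lower in whole nerve at each time (15.0 to 43.2), while Cldn1 stayed between 0.28 and 1.35. Of the 17 markers on the fibroblast, pericyte and perineurial lists, 6 (Col1a1, Tagln, Cspg4, Pdgfrb, Slc2a1 and Itgb4) were higher in both uncrushed Schwann cell libraries than in all 6 crushed ones. The other 11, Dcn, Lum, Pdgfra, Rgs5 and Cldn1 among them, were not. A list of 6 neuron markers went the other way, from 27.6 and 44.4 to between 120 and 278, nearly all of it from the neurofilament genes Nefl and Nefm, while Rbfox3 was listed at 0 in all 8 Schwann cell libraries.

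In uncrushed Schwann cells 13 of the 39 members reached a mean of 1 FPKM, and 11, 14 and 13 did at days 3, 5 and 7. In whole nerve 20, 20, 20 and 19 did. Of the members, 23 had enough counts to be tested in Schwann cells and 29 in whole nerve. With edgeR's quasi-likelihood test and Benjamini-Hochberg adjustment over all genes at 0.05, 4 members were higher and 14 lower at day 3 in Schwann cells than in uncrushed cells, where 26.9% of the 14961 genes tested were called higher and 25.7% lower, 52.5% in all. At day 5 the counts were 6 higher and 10 lower, beside 29.0% and 25.6% of all genes (54.6% in all). At day 7 they were 7 and 8, beside 25.0% and 21.9% (46.9% in all). The median log2 fold change of the 23 tested members was -0.91 at day 3, -0.35 at day 5 and -0.31 at day 7, against 0.00, 0.06 and 0.06 over all genes. The members thus stood lowest at day 3. That count of 18 was 15 without day 3 replicate 2 and 14 without uncrushed replicate 1.

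In whole nerve 3 members were higher and 13 lower at day 3, beside 23.1% and 22.5% of 15831 genes (45.6% in all). At day 5 there were 3 and 8, beside 18.9% and 19.5% (38.4% in all), and at day 7 there were 3 and 10, beside 15.4% and 15.9% (31.3% in all). The medians of the 29 tested members were -0.49, -0.20 and -0.51, against 0.00, -0.01 and 0.02 over all genes. In whole nerve, fold changes fitted to the counts are lower than ratios of FPKM, since the FPKM ratio to uncrushed nerve exceeded the fitted fold by a median of 0.41 on the log2 scale at each of the 3 days, and in Schwann cells that shift was -0.05, 0.03 and 0.04. A member of whole nerve can thus be called lower while its FPKM differ little. No called member had an FPKM ratio of the opposite sign to its fold. In these bulk samples, fewer cells of a type and less RNA per cell cannot be told apart, and the summed FPKM of 10 Schwann cell markers in whole nerve was 18300 and 21900 before crush and 2390 to 4790 after. The leukocyte sum of whole nerve, given above, was higher at every day after crush than before it, and the part of either in the falls of Slit2, Ntn4, Neo1, Ntn1 and other members there was not tested.

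**Figure D1:**
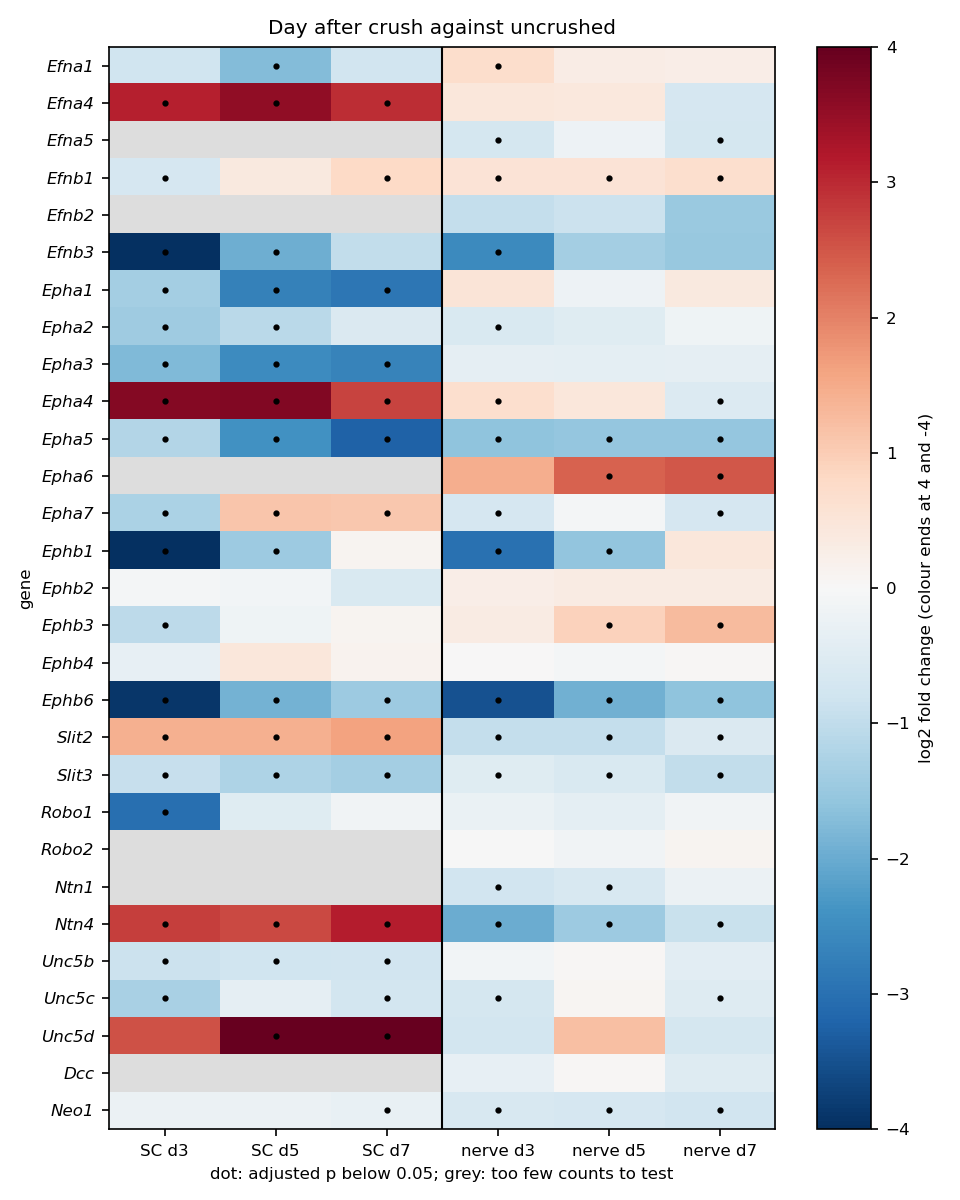
Log2 fold change against uncrushed (colour) of each tested member (rows) in Schwann cells (SC, left 3 columns) and whole nerve (right 3 columns) at days 3, 5 and 7 (d3, d5, d7), with a dot where the adjusted p was below 0.05 and grey where counts were too few to test. Epha4 and Slit2 are red with a dot in all 3 Schwann cell columns, and Epha5, Ephb6 and Slit3 are blue with a dot in all 6 columns.

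Slit2, a secreted Robo ligand, became the most abundant member in Schwann cells after crush. It stood at 9.92 and 9.81 FPKM in the 2 uncrushed Schwann cell libraries, at 27.5 and 24.0 on day 3, at 27.9 and 25.7 on day 5 and at 29.9 and 32.2 on day 7. All 6 injured libraries lay above both uncrushed ones. The log2 fold change was 1.41 (SE 0.106, adjusted p = 3.84e-06) at day 3, 1.41 (SE 0.106, adjusted p = 4.58e-06) at day 5 and 1.60 (SE 0.107, adjusted p = 3.26e-06) at day 7. In whole nerve Slit2 went the opposite way, from 17.9 and 20.1 FPKM to 12.2 and 14.1, then 11.8 and 14.5, then 15.3 and 18.1. It was called lower there at each day, by -0.95 (SE 0.130), -0.94 (SE 0.131) and -0.59 (SE 0.130), and the last call was lost without day 7 replicate 1 (-0.44). At day 7 the FPKM of the 2 nerve groups overlapped.

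Slit3, its relative, fell in both tissues. In Schwann cells it was at 3.78 and 4.90 FPKM before crush and at 2.16 and 2.28, then 1.77 and 1.93, then 1.63 and 1.88 after, with log2 fold changes of -0.91 (SE 0.173), -1.25 (SE 0.177) and -1.35 (SE 0.180) and adjusted p from 0.000241 to 0.00167. In whole nerve it was far more abundant, at 14.6 and 13.4 before crush, 12.8 and 13.6 on day 3, 12.4 and 12.1 on day 5 and 8.33 and 10.5 on day 7, and the fitted falls were -0.49 (SE 0.109), -0.61 (SE 0.109) and -0.98 (SE 0.111). The fibroblast, pericyte and perineurial marker sums were also highest in the uncrushed Schwann cell libraries, through 6 of their 17 markers, while Dcn and Lum, at 16.9 and 7.92 and at 7.87 and 5.46 FPKM before crush, overlapped day 3 (6.77 and 17.9, 2.72 and 8.49). Their part in the fall of Slit3 was not tested. Slit2 thus made up 69.4% of the summed Slit FPKM of uncrushed Schwann cells and 94.6% at day 7. Slit1 reached no more than 0.05 FPKM in any of the 16 libraries.

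The Robo receptors were scarce in Schwann cells. Robo1 was at 0.24 and 0.17 FPKM in uncrushed Schwann cells, at 0.01 and 0.03 on day 3, at 0.19 and 0.14 on day 5 and at 0.21 and 0.17 on day 7. The drop at day 3 was called (log2 fold change -3.03, SE 0.656, adjusted p = 0.00352), and the later days were not. Whole nerve held 1.34 to 2.16 FPKM of Robo1 with no call at any day. Robo2 lay between 0.51 and 0.74 FPKM in whole nerve, also without a call, and at most at 0.06 in Schwann cells. Robo3 and the endothelial Robo4 reached no more than 0.15 and 0.30 FPKM in any library. The summed FPKM of the 4 Robo genes was 0.05 to 0.44 in the Schwann cell libraries, beside 13.7 to 34.1 for the 3 Slits.

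**Figure D2:**
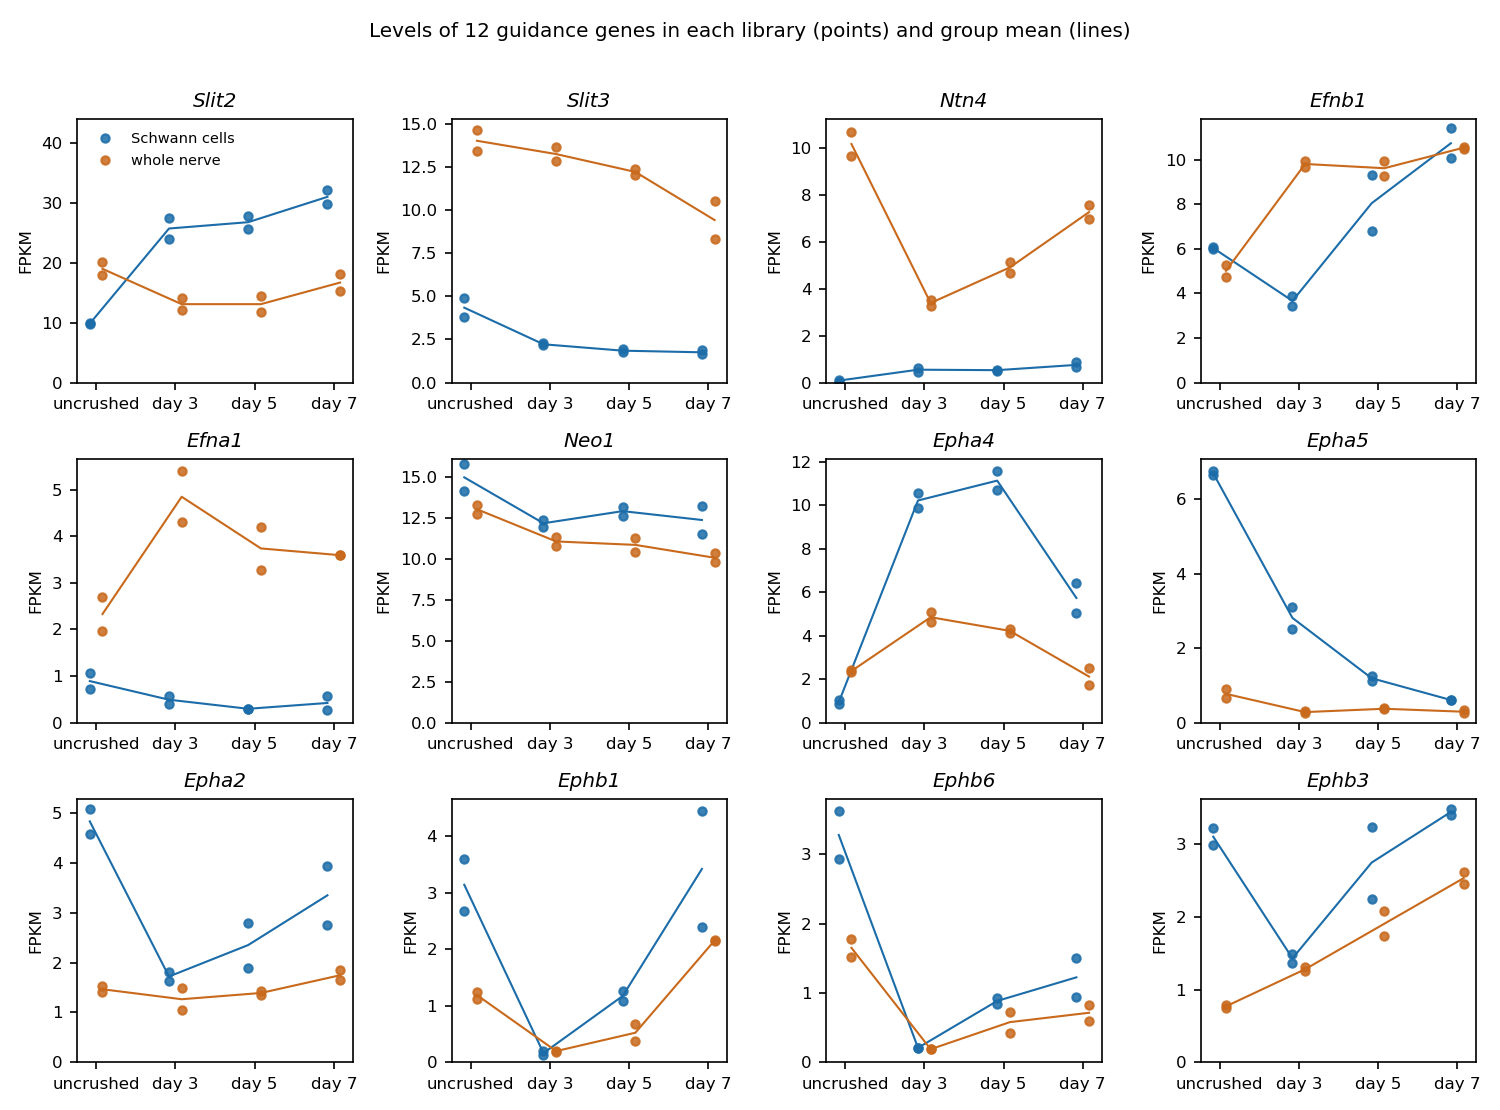
FPKM (vertical axes, from 0) of 12 members in each library (points) by time (horizontal axes), with lines through the group means, for Schwann cells in blue and whole nerve in orange. Slit2 climbs in Schwann cells from about 10 to about 30 FPKM while the nerve points stay between 11.8 and 20.1, and Ephb1 and Ephb6 dip at day 3 in both tissues.

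Ntn4 and Ntn1 were far lower in the purified cells than in whole nerve. Ntn4, a netrin of basement membranes, was at 9.64 and 10.7 FPKM in uncrushed whole nerve, at 3.53 and 3.25 on day 3, at 4.67 and 5.14 on day 5 and at 7.55 and 6.97 on day 7. The fitted log2 fold change was -1.99 (SE 0.155, adjusted p = 3.22e-06) at day 3, -1.46 (SE 0.152) at day 5 and -0.89 (SE 0.149) at day 7. It was higher at day 7 than at day 3 by 1.10 (SE 0.155, adjusted p = 0.000795). In Schwann cells Ntn4 moved upward from almost nothing, from 0.04 and 0.13 FPKM to 0.64 and 0.46, then 0.51 and 0.55, then 0.65 and 0.86. With 4 counts in all in the uncrushed libraries, the count ratio was 6.89 at day 3 (95% counting interval 2.50 to 26.4), 6.54 at day 5 and 9.05 at day 7. All 3 days were called higher, but without uncrushed replicate 1 the calls at days 3 and 5 were lost (log2 2.10 and 1.99).

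Ntn1, the founding netrin of vertebrates, was at 4.92 and 5.59 FPKM in uncrushed nerve, 4.45 and 3.73 on day 3, 4.26 and 4.79 on day 5 and 5.28 and 6.29 on day 7. It was called lower at day 3 (-0.76, SE 0.186, adjusted p = 0.00737) and at day 5 (-0.64, SE 0.187, adjusted p = 0.0217), and both calls were lost in the fit of all 16 libraries (-0.69 and -0.54). The first was also lost without day 3 replicate 2 (-0.61), and the second with DESeq2 (-0.63) and without uncrushed replicate 2 or either day 5 library (-0.73 to -0.53). Schwann cells held 0 to 0.22 FPKM of it and it was not tested there. Ntn3 and Ntn5 reached at most 0.33 and 0.19 FPKM, and Ntn5 was listed at 0 to 0.07 in whole nerve and at 0.05 to 0.19 in Schwann cells. The 4 netrins summed to 0.31 to 1.21 FPKM in Schwann cell libraries and to 7.07 to 16.5 in whole nerve.

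Efnb1, which encodes ephrin-B1, was the chief ephrin of both tissues. In Schwann cells it was at 6.08 and 5.99 FPKM before crush, 3.90 and 3.43 on day 3, 9.31 and 6.78 on day 5 and 11.4 and 10.1 on day 7. Schwann cells thus passed through a low on day 3 (log2 fold change -0.67, SE 0.178, adjusted p = 0.0103, lost without day 3 replicate 2 at -0.58) and ended higher on day 7 (0.79, SE 0.173, adjusted p = 0.00442). From day 3 to day 7 the change was 1.46 (SE 0.175, adjusted p = 0.000435). In whole nerve Efnb1 was at 4.75 and 5.28 FPKM before crush and at 9.94 and 9.67, then 9.95 and 9.28, then 10.6 and 10.5 after. It was the only member called higher there at all 3 days, by 0.56 (SE 0.116), 0.54 (SE 0.116) and 0.67 (SE 0.117), with adjusted p of 0.00269, 0.00466 and 0.0016.

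The other B ephrins were low. Efnb3 was at 0.56 and 0.76 FPKM in uncrushed Schwann cells, 0.02 and 0.01 on day 3, 0.24 and 0.10 on day 5 and 0.35 and 0.33 on day 7. The day 3 libraries held 2 counts together, so uncrushed cells had 39.8 times as much by counts (95% counting interval 10.5 to 338), and the fall was called (adjusted p = 0.000344). At day 5 Efnb3 was also called lower in Schwann cells, a call lost without uncrushed replicate 2 (-1.7) or day 5 replicate 2 (-1.45). Whole nerve had 0.52 and 0.58 before crush and 0.11 and 0.14 on day 3, also called lower (-2.55, SE 0.682, adjusted p = 0.0115), a call lost without either day 3 library (-2.42 and -2.67). Efnb2, an ephrin of arterial endothelium among other cells, was at 2.11 and 1.76 FPKM in uncrushed nerve and at 0.70 to 2.06 after crush with no call, and at 0 to 0.25 in Schwann cells.

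Among the A ephrins, Efna1 and Efna5 belonged to whole nerve and Efna4 moved in Schwann cells. Efna1 was at 1.97 and 2.69 FPKM in uncrushed nerve, 4.30 and 5.40 on day 3, 3.27 and 4.21 on day 5 and 3.60 and 3.59 on day 7, and the rise at day 3 just passed the test (0.69, SE 0.255, adjusted p = 0.0487) and failed in 6 of 11 alternative fits. In Schwann cells it was at 0.71 and 1.07 before crush and at 0.26 to 0.58 after, called lower at day 5 alone (-1.72, SE 0.557, adjusted p = 0.0256), a call lost in 4 of 11. Efna5 was at 4.20 and 2.2 FPKM in uncrushed nerve and at 2.59 to 3.89 after crush, and at most 0.13 in Schwann cells. Its calls in nerve (-0.71 at day 3 and -0.71 at day 7) were lost without uncrushed replicate 1, the library with 4.20 (-0.37 at both), without day 3 replicate 2 (-0.52) and without either day 7 library (-0.71 and -0.67). Both were also lost in the fit of all 16 libraries (-0.64 and -0.61), and that at day 7 with DESeq2, upper quartile normalization and only the groups compared (-0.71 to -0.66). Efna4 was at 0 and 0.24 FPKM in uncrushed Schwann cells, 1.20 and 0.73 on day 3, 1.71 and 1.15 on day 5 and 0.78 and 1.13 on day 7. It was called higher at each day, with count ratios of 8.76 (95% counting interval 2.79 to 44.2), 12.7 (4.11 to 63.6) and 8.04 (2.48 to 41.3) over 3 uncrushed counts, and the calls at days 3 and 7 were lost without uncrushed replicate 1 (log2 2.06 and 1.90). The first was also lost without day 3 replicate 1 (2.71) and the other without either day 7 library (3.20 and 2.68). Efna2 and Efna3 reached no more than 0.56 and 0.17 FPKM in any library.

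The EphA receptors changed places in Schwann cells. Epha4, a receptor that binds ephrins of both classes, was at 1.02 and 0.85 FPKM in uncrushed cells, 9.89 and 10.6 on day 3, 10.7 and 11.6 on day 5 and 5.06 and 6.41 on day 7. The log2 fold change was 3.66 (SE 0.154, adjusted p = 1.17e-07), 3.70 (SE 0.154, adjusted p = 1.44e-07) and 2.7 (SE 0.154, adjusted p = 1.3e-06), and it was lower at day 7 than at day 3 by -0.95 (SE 0.128, adjusted p = 0.000779). The lowest of the 6 injured libraries, at 5.06, lay far above the higher uncrushed one. Whole nerve showed a smaller rise, from 2.31 and 2.43 FPKM to 5.08 and 4.62 on day 3, 4.12 and 4.32 on day 5 and 2.52 and 1.71 on day 7. Nerve was called higher at day 3 (0.66, SE 0.181, adjusted p = 0.0131, lost without uncrushed replicate 1 at 0.66 or day 3 replicate 1 at 0.58) and lower at day 7 (-0.55, SE 0.189, adjusted p = 0.0487), a call lost in 6 of 11 alternative fits (-0.27 without day 7 replicate 2, and -0.87 without replicate 1).

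Epha5, a receptor of the A ephrins best known from brain, ran the opposite course. It was at 6.75 and 6.64 FPKM in uncrushed Schwann cells, 3.10 and 2.52 on day 3, 1.26 and 1.12 on day 5 and 0.60 and 0.61 on day 7. Each group lay wholly below the one before it in time. The log2 fold change was -1.16 (SE 0.161, adjusted p = 0.000233), -2.42 (SE 0.173, adjusted p = 3.22e-06) and -3.22 (SE 0.186, adjusted p = 1.39e-06), and -2.06 (SE 0.185, adjusted p = 9e-05) from day 3 to day 7. Whole nerve had 0.65 and 0.89 FPKM before crush and 0.25 to 0.39 after, called lower at each day by -1.61 (SE 0.317), -1.55 (SE 0.320) and -1.56 (SE 0.326). Epha5 thus made up 45.9% of the summed EphA FPKM of uncrushed Schwann cells but 5.63% by day 7, and Epha4 went from 6.41% to 66.1%, 70.4% and 53.4%. The sum itself was 14.4 and 14.7 FPKM before crush, 15.4 and 15.5 on day 3, 15.3 and 16.4 on day 5 and 9.26 and 12.2 on day 7.

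Epha2, a receptor for ephrin-A1, was at 4.58 and 5.07 FPKM in uncrushed Schwann cells, 1.62 and 1.82 on day 3, 1.90 and 2.80 on day 5 and 2.76 and 3.93 on day 7. It fell at day 3 (-1.43, SE 0.226, adjusted p = 0.000541) and day 5 (-1.07, SE 0.223, adjusted p = 0.0029). In nerve it stayed between 1.04 and 1.85 FPKM, and a call at day 3 (-0.62, SE 0.222) was lost in 7 of 11 alternative fits (-0.39 without day 3 replicate 1). Epha3, at 3.45 to 4.99 FPKM in all whole nerve libraries with no call, was at 0.91 and 0.64 in uncrushed Schwann cells, 0.20 and 0.19 on day 3, 0.22 and 0.08 on day 5 and 0.08 and 0.22 on day 7, with called falls of -1.77 (SE 0.531), -2.53 (SE 0.565) and -2.67 (SE 0.586), the first lost without uncrushed replicate 1 or day 3 replicate 2 (-1.57 in both). The same 3 marker sums were higher before crush than after, again with 6 of their 17 markers above all crushed libraries and Dcn, Lum, Pdgfra, Rgs5 and Cldn1 overlapping them. Their part was not tested. Epha7 was at 0.37 and 0.49, then 0.15 and 0.16, then 0.99 and 0.65, then 0.64 and 0.93 FPKM in Schwann cells, called lower at day 3 (-1.28, SE 0.390) and higher at day 5 (1.11, SE 0.350) and day 7 (1.07, SE 0.353). Those 3 calls were each lost without uncrushed replicate 1 (-1.29, 1.10 and 1.06), without day 3 replicate 1 (-1.05), day 5 replicate 1 (0.70) or day 7 replicate 2 (0.87) for the day in question, and at days 5 and 7 without uncrushed replicate 2 (1.10 and 1.06). The day 7 call was also lost with DESeq2 (1.02). In nerve it was at 1.75 to 3.19 FPKM throughout, with called falls at day 3 (-0.68) and day 7 (-0.67) that were lost without uncrushed replicate 2 (-0.52 and -0.51), without day 3 replicate 2 (-0.55) or without day 7 replicate 1 (-0.50), and both in the fit of all 16 libraries (-0.61 and -0.58).

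Epha1 was at 0.78 and 1.00 FPKM in uncrushed Schwann cells and at 0.11 to 0.41 after crush, called lower at each day. The day 3 call (-1.35) was lost with DESeq2 (-1.39), without either uncrushed library (-1.55 and -1.15) and without day 3 replicate 2 (-1.03). The FPKM in nerve was 0.12 to 0.30 with no call. Epha6 was at 0 in all 8 Schwann cell libraries and at 0.01 to 0.21 in nerve, where it was called higher at days 5 and 7 over 3 uncrushed counts (count ratios 5.40 and 5.90). Each of these calls was lost in 6 of 11 alternative fits. Epha8 was at 0 in all 16 libraries and Epha10 at no more than 0.05.

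**Figure D3:**
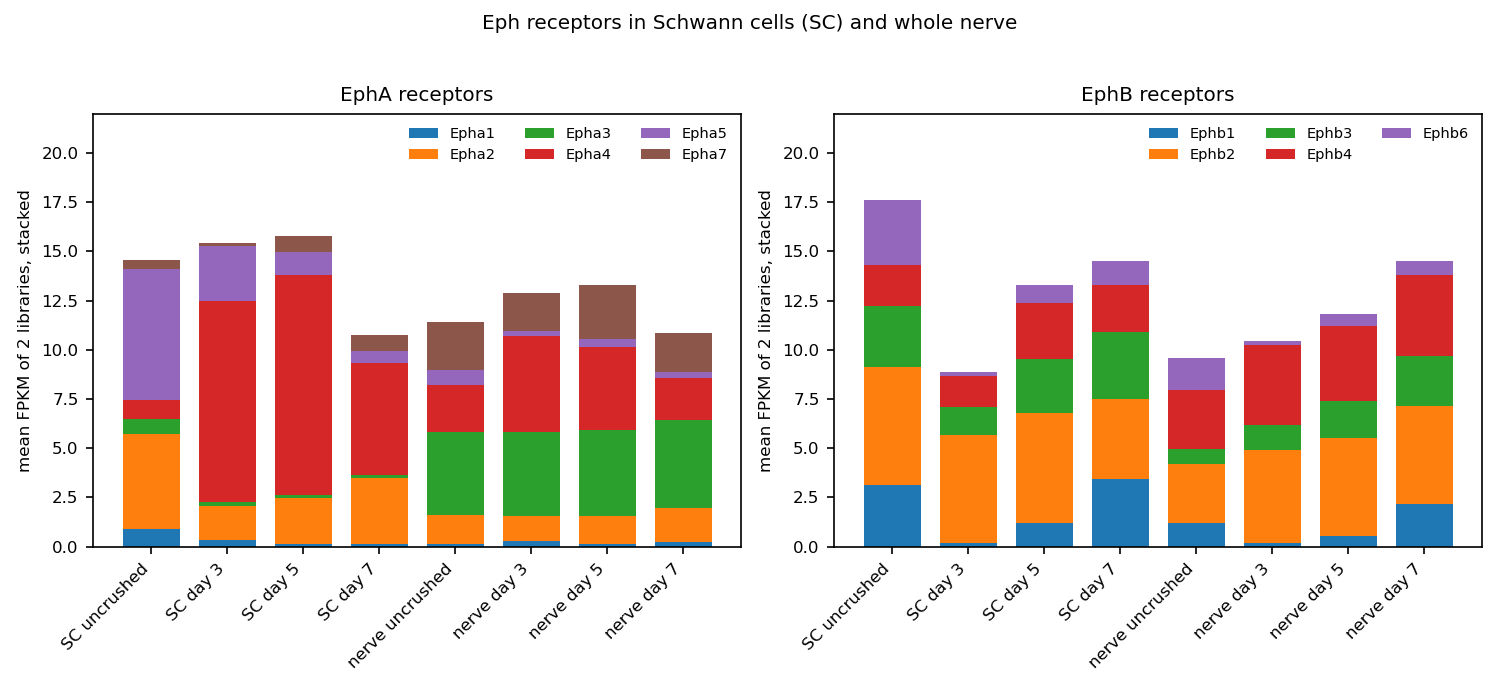
Mean FPKM of 2 libraries (vertical axis) stacked by receptor for the EphA genes (left, those with a mean of at least 0.5 FPKM in some group) and the EphB genes (right) in Schwann cells (SC) and whole nerve at each time. In Schwann cells the Epha5 block gives way to an Epha4 block of 10.2 FPKM at day 3 while the EphA stack stays between 14.6 and 15.8 FPKM up to day 5 and is at 10.7 at day 7, and the EphB stack drops from 17.6 to 8.88 FPKM at day 3.

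The EphB receptors as a group dipped at day 3 in Schwann cells, through some members and not others. Ephb1 was at 3.60 and 2.68 FPKM in uncrushed cells, 0.20 and 0.13 on day 3, 1.09 and 1.26 on day 5 and 4.44 and 2.40 on day 7. The fall at day 3 was -4.24 on the log2 scale (SE 0.366, adjusted p = 9.6e-06) and that at day 5 was -1.44 (SE 0.293, adjusted p = 0.00243). From day 3 to day 7 it rose by 4.33 (SE 0.365, adjusted p = 6.36e-05), and the day 7 libraries overlapped the uncrushed ones. Whole nerve went from 1.25 and 1.13 FPKM to 0.21 and 0.19, then 0.37 and 0.68, then 2.17 and 2.14. The calls there were -2.99 (SE 0.314, adjusted p = 2.82e-05) at day 3, -1.58 (SE 0.284, adjusted p = 0.00155) at day 5 and 3.43 (SE 0.306, adjusted p = 4.91e-05) from day 3 to day 7.

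Ephb6, whose kinase domain is inactive, was at 3.62 and 2.93 FPKM in uncrushed Schwann cells, 0.21 and 0.21 on day 3, 0.93 and 0.84 on day 5 and 1.51 and 0.94 on day 7. It fell by 3.90 on the log2 scale at day 3 (SE 0.300, adjusted p = 4.39e-06), by 1.90 at day 5 (SE 0.259) and by 1.44 at day 7 (SE 0.254), so that its recovery by day 7 was partial. The rise from day 3 to day 7 was 2.46 (SE 0.306, adjusted p = 0.000539). Whole nerve had 1.52 and 1.78 FPKM before crush, 0.19 and 0.19 on day 3, 0.73 and 0.43 on day 5 and 0.60 and 0.83 on day 7, with falls of -3.49 (SE 0.350), -1.92 (SE 0.315) and -1.61 (SE 0.313), all called. No library of an injured group reached an uncrushed one in either tissue.

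Ephb3 was at 2.98 and 3.22 FPKM in uncrushed Schwann cells, 1.49 and 1.37 on day 3, 3.24 and 2.25 on day 5 and 3.48 and 3.40 on day 7. The dip at day 3 was called (-1.05, SE 0.210, adjusted p = 0.0023), and the level at day 7 was above that at day 3 by 1.16 (SE 0.209). In whole nerve it climbed without a dip, from 0.75 and 0.79 FPKM to 1.31 and 1.25, then 1.73 and 2.08, then 2.61 and 2.45, called at day 5 (0.92, SE 0.199, adjusted p = 0.0047) and day 7 (1.28, SE 0.198, adjusted p = 0.000752). Ephb2, the receptor through which Schwann cells are known to read fibroblast ephrin-B, was at 7.62 and 4.38 FPKM in uncrushed Schwann cells, 5.67 and 5.30 on day 3, 6.02 and 5.18 on day 5 and 3.75 and 4.36 on day 7. It was called at no day in either tissue, and the gap between the 2 uncrushed libraries was the widest of any member at 1 FPKM or more in that group. Nerve had 2.87 and 3.10 before crush and 4.38 to 5.60 after. Ephb4, a venous receptor, was at 1.57 to 2.94 FPKM in Schwann cells and 2.77 to 4.46 in nerve, also without a call. Ephb2 made up 34.1% of the summed EphB FPKM of uncrushed Schwann cells and 61.8% at day 3.

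Neogenin, the product of Neo1 and a receptor for netrins and repulsive guidance molecules, was the most abundant member in uncrushed Schwann cells. It was at 15.8 and 14.2 FPKM there, 12.4 and 11.9 on day 3, 13.2 and 12.6 on day 5 and 11.5 and 13.2 on day 7. The call at day 7 (-0.31, SE 0.103, adjusted p = 0.0308) was lost without uncrushed replicate 1 (-0.26) or day 7 replicate 1 (-0.21), and with only the groups compared (-0.35). In nerve it was at 12.8 and 13.3 before crush, 10.8 and 11.3 on day 3, 11.3 and 10.4 on day 5 and 9.78 and 10.3 on day 7, with called falls of -0.65 (SE 0.0844), -0.67 (SE 0.0847) and -0.78 (SE 0.0853). Dcc, the classical netrin receptor of axons, was at 0 to 0.07 FPKM in Schwann cells and 0.14 to 0.35 in nerve.

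Unc5b fell and stayed low in Schwann cells, at 2.95 and 3.31 FPKM before crush, 1.73 and 1.62 on day 3, 1.70 and 1.96 on day 5 and 1.86 and 2.05 on day 7. The log2 fold changes were -0.86 (SE 0.155, adjusted p = 0.00121), -0.79 (SE 0.155, adjusted p = 0.00206) and -0.76 (SE 0.157, adjusted p = 0.00326). In nerve it was at 1.24 to 2.12 FPKM without a call. Unc5c was at 2.28 and 2.66 FPKM in uncrushed Schwann cells, 0.96 and 0.96 on day 3, 1.78 and 2.15 on day 5 and 1.34 and 1.67 on day 7, called lower at day 3 (-1.30, SE 0.167, adjusted p = 0.000139) and day 7 (-0.75, SE 0.165, adjusted p = 0.00478). Nerve was at 2.13 and 2.7 before crush, 1.71 and 2.24 on day 3, 2.96 and 3.79 on day 5 and 2.26 and 2.19 on day 7, and its calls at day 3 (-0.70, SE 0.177) and day 7 (-0.53, SE 0.179) were lost without uncrushed replicate 2 (-0.52 and -0.35), without day 3 replicate 1 (-0.52) or without either day 7 library (-0.52 and -0.49). The day 7 call was also lost with upper quartile normalization (-0.48), only the groups compared (-0.53) and all 16 libraries in 1 fit (-0.43). Unc5d appeared late in Schwann cells, at 0.01 and 0 FPKM before crush, 0.01 and 0.04 on day 3, 0.29 and 0.33 on day 5 and 0.43 and 0.40 on day 7. With 1 uncrushed count in all, the ratio was 71.8 at day 5 (95% counting interval 12.6 to 2863) and 94.8 at day 7 (16.7 to 3778), and both days were called. The neurofilament RNA noted above also stood highest in Schwann cells at those days, and its part was not tested. Unc5a reached at most 0.11 FPKM in any library.

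Day 7 was also compared directly with day 3. In Schwann cells 10 of the 23 tested members were higher at day 7 than at day 3 and 2 were lower, beside 10.2% and 10.7% of all genes (21.0% in all). The 10 were Efnb1, Efnb3, Epha2, Epha7, Ephb1, Ephb3, Ephb6, Robo1, Unc5c and Unc5d, and the 2 were Epha4 and Epha5. The call of Unc5c was lost with DESeq2 (0.54) and without any 1 of the 4 libraries (0.40 to 0.71). That of Epha2 was lost without either day 3 library or day 7 replicate 2 (0.59 to 0.96), that of Robo1 without replicate 1 of either day (2.43 and 2.50) and that of Efnb3 without day 3 replicate 2 (3.74). Leaving out 1 library left 9 or 10 of the 12 calls. In whole nerve 4 members were higher at day 7 (Ephb1, Ephb3, Ephb6 and Ntn4) and 2 lower (Epha4 and, lost without day 3 replicate 2 or day 7 replicate 1 at -0.46 and -0.33, Slit3), beside 9.85% and 11.4% (21.2% in all). These comparisons share the day 3 libraries with those against uncrushed.

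Schwann cells and whole nerve were then compared at each time, in a fit of all 16 libraries with 30 members tested. Before crush the FPKM ratio of Schwann cells to nerve exceeded the fitted fold by a median of 0.31 on the log2 scale. Fitted differences before crush thus lie further toward nerve than FPKM ratios. At days 3, 5 and 7 that shift was -0.05, 0.05 and 0.06. In uncrushed tissue 8 members were higher in Schwann cells and 17 lower, beside 29.1% and 35.3% of 16829 genes (64.4% in all). The 8 were Epha1, Epha2, Epha5, Unc5b and 4 of the 5 EphB receptors, Ephb1, Ephb2, Ephb3 and Ephb6. Epha5 led with a difference of 2.69 on the log2 scale (SE 0.221, adjusted p = 1.05e-07), followed by Epha1 at 2.47 (SE 0.479), Ephb3 at 1.70 (SE 0.215) and Epha2 at 1.41 (SE 0.232). The call for Ephb6 (0.68, SE 0.275, adjusted p = 0.0425) was lost in 5 of 10 alternative fits, and that for Ephb2 (0.70, SE 0.217) in 3 of 10 (0.27 without Schwann cell uncrushed replicate 1). That for Ephb1 was lost without the same library (0.87). At day 3 the counts were 3 higher and 16 lower, beside 24.5% and 32.8% (57.3% in all). At day 5 they were 6 and 13, beside 23.2% and 28.4% (51.7% in all), and at day 7 they were 6 and 14, beside 22.4% and 28.7% (51.0% in all).

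Slit2, Epha4 and, by day 7, Unc5d crossed from the lower to the higher side. Slit2 was lower in Schwann cells than in nerve before crush (-1.22, SE 0.126) and higher after, by 1.03 (SE 0.124), 1.00 (SE 0.124) and 0.85 (SE 0.124). Epha4 was lower before crush (-1.78, SE 0.193) and higher after, by 1.11 (SE 0.153), 1.35 (SE 0.155) and 1.36 (SE 0.167). These 8 differences were all called, with adjusted p from 1.07e-06 to 4.81e-05. Unc5d was called lower before crush, on 1 count in Schwann cells against 22 in nerve, and higher at day 7, with no call at days 3 and 5. Epha5 stayed on the Schwann cell side at every time (3.03, 1.69 and 0.91 at days 3, 5 and 7), although the last was lost without nerve day 7 replicate 2 (0.76). The nerve side was held throughout by Slit3, Ntn1, Ntn4, Robo1, Robo2, Efna1, Efna5, Efnb2, Epha3, Epha7 and Dcc, each called lower in Schwann cells at all 4 times, although that of Dcc at day 7 was lost without replicate 1 of either tissue (-1.74 and -1.65). Slit3 differed by -2.0 (SE 0.142) to -2.77 (SE 0.149), Robo1 by -3.24 (SE 0.287) to -6.07 (SE 0.364) and Epha3 by -2.74 (SE 0.284) to -5.23 (SE 0.366). Ntn1 differed by -5.03 (SE 0.467) to -5.88 (SE 0.502), resting on 5 to 8 counts in each Schwann cell group, and its day 7 value was -10.28 without Schwann cell day 7 replicate 1, a fitted value that is no bound because the remaining library held 0 counts. For Ntn4, uncrushed nerve had 158 times the counts of uncrushed Schwann cells (95% counting interval 61.2 to 581), and for Efna5 92.2 times (31.1 to 450). Dcc, at 0 counts in both day 3 Schwann cell libraries, was at least 13.5-fold higher in day 3 nerve.

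**Figure D4:**
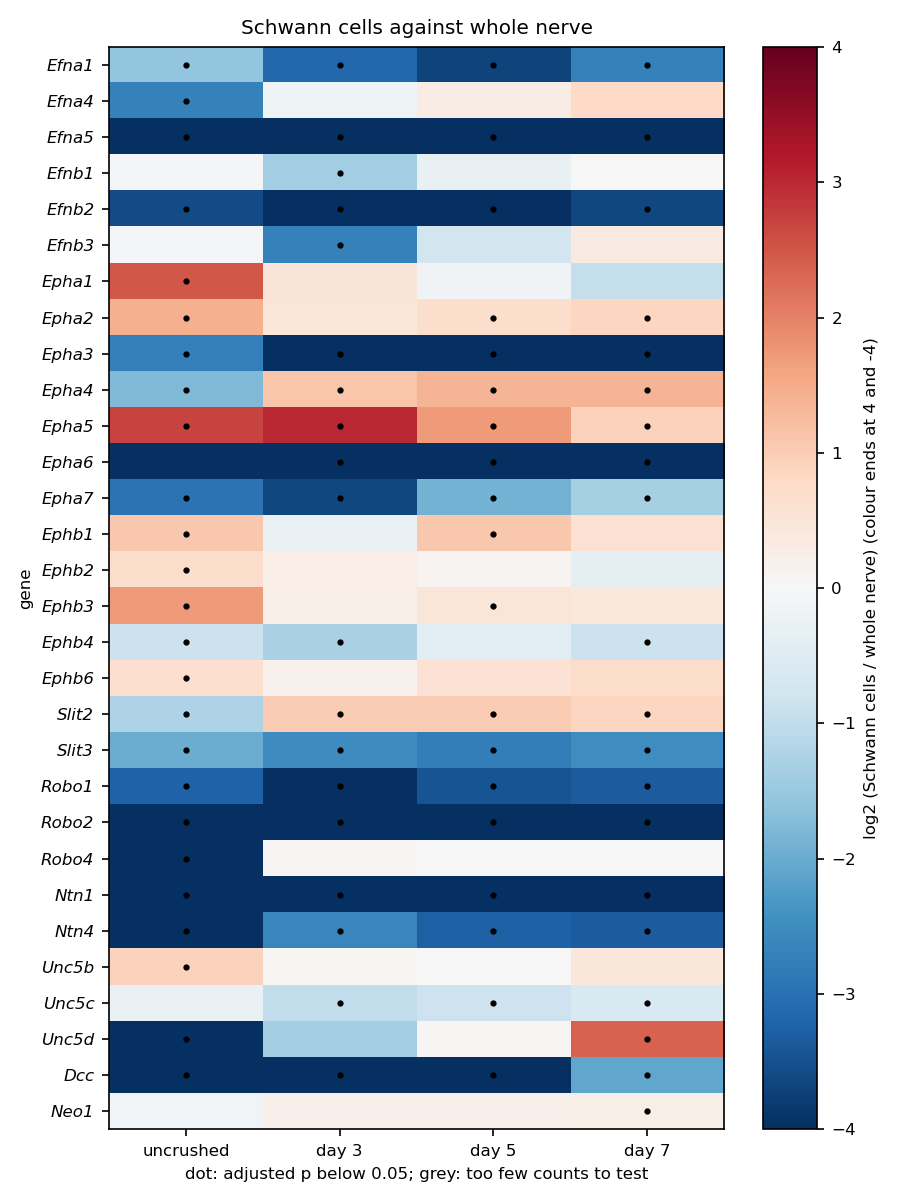
Log2 ratio of Schwann cells to whole nerve (colour, red where Schwann cells are higher) of 30 tested members (rows) at each time (columns), with a dot where the adjusted p was below 0.05. Slit2 and Epha4 turn from blue before crush to red after it, while Slit3, Ntn1, Ntn4, Robo1, Robo2, Efna5, Epha3 and Dcc stay blue.

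Whether the fold change after crush differed between Schwann cells and whole nerve was tested as an interaction. Whole nerve contains Schwann cells among other cells, so a different response to injury and a changed cell make-up cannot be told apart. At day 3 the effect in Schwann cells was above that in nerve for 3 members and below it for 7, beside 12.3% and 13.7% of 16829 genes (26.0% in all), and at day 7 for 7 and 5, beside 11.6% and 14.4% (26.0% in all). Epha4 and Slit2 stood above at both days. For Slit2 the difference was 2.26 (SE 0.177, adjusted p = 5.75e-07) at day 3 and 2.07 (SE 0.177, adjusted p = 1.51e-06) at day 7. For Epha4 it was 2.89 (SE 0.246, adjusted p = 1.2e-06) and 3.14 (SE 0.255, adjusted p = 9.84e-07). Efnb1 at day 3 was below by -1.34 (SE 0.216, adjusted p = 0.000365), and at day 7 its difference was 0.01 (SE 0.213, adjusted p = 1.0). Ephb3 was below at both days, by -1.48 (SE 0.293, adjusted p = 0.00178) and -1.28 (SE 0.287, adjusted p = 0.00439), and Epha3 by -1.55 (SE 0.431, adjusted p = 0.0161) and -2.49 (SE 0.495, adjusted p = 0.00195). Its day 3 difference was lost without uncrushed replicate 1 of either tissue (-1.34 and -1.30) or Schwann cell day 3 replicate 2 (-1.34). The count of 10 at day 3 was 6 without nerve uncrushed replicate 1. Of the 23 members tested in both tissues at day 3, 8 were called lower in both, namely Efnb3, Epha2, Epha5, Epha7, Ephb1, Ephb6, Slit3 and Unc5c, where 12.8% of the 14030 genes tested in both were. Epha4 alone was called higher in both, beside 14.2% of all genes. Slit2 and Ntn4 were higher in Schwann cells and lower in nerve, beside 2.02%, and Efnb1 was the reverse, beside 1.68%.

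**Figure D5:**
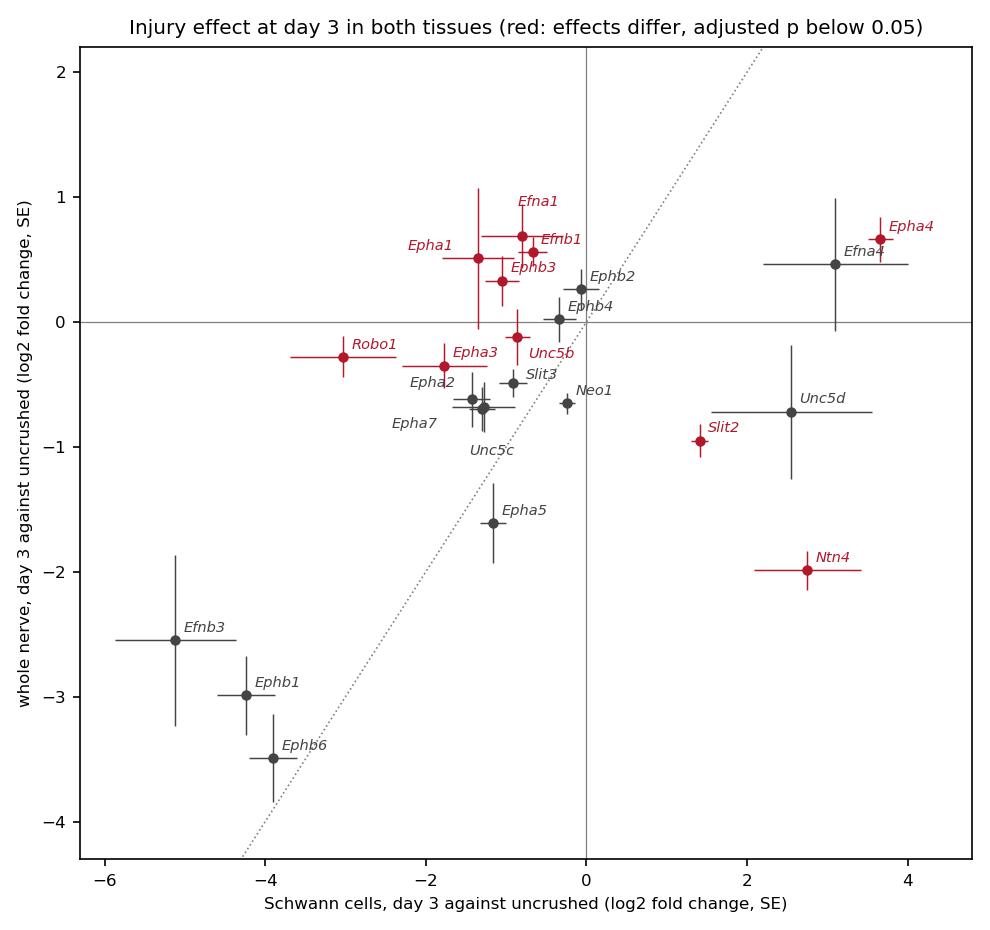
Log2 fold change of day 3 against uncrushed in Schwann cells (horizontal axis) and whole nerve (vertical axis) for the 23 members tested in both, with bars of 1 SE, in red where the 2 effects differed at an adjusted p below 0.05, and a dotted line of equal effects. Ephb1, Ephb6 and Efnb3 lie at the lower left, Slit2 and Ntn4 at the lower right and Epha4 at the far right; positions of Efna4, Efnb3, Ntn4 and Unc5d rest on a Schwann cell group with 3 counts or fewer per library.

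Partner and effector genes of the 3 systems were read from lists made with earlier results known. Of all genes tested in Schwann cells, 26.9% were higher and 25.7% lower on day 3, 29.0% and 25.6% on day 5 and 25.0% and 21.9% on day 7. In whole nerve the shares on day 3 were 23.1% and 22.5%. Of 20 tested genes of ephrin and Eph signaling, 9 were higher and 4 lower at day 3 in Schwann cells, 10 and 3 at day 5, then 10 and 4 on day 7, with median log2 fold changes of 0.37, 0.63 and 0.42. Cdh2, which encodes N-cadherin, went from 79.2 and 76.7 FPKM to 14.6 and 13.2 on day 3, 8.60 and 7.77 on day 5 and 11.5 and 12.8 on day 7 (log2 fold change -2.44, -3.27 and -2.72). Sox2, a transcription factor known to act downstream of EphB2 in Schwann cells, went from 25.9 and 18.9 FPKM to 48.9 and 47.9, then 49.4 and 42.6, then 42.0 and 53.8 (1.16, 1.02 and 1.06). The adaptor Nck1 and the kinase subunit Pik3r1 also fell at all 3 days, by -1.06 and -1.10 at day 3, and Ptpn11, Rasa1 and the PDZ protein Sdcbp rose, by 1.14, 1.13 and 1.04. In whole nerve 6 of 19 tested were higher and 5 lower at day 3.

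Of 14 genes of Slit and Robo signaling, 7 were higher and 2 lower at day 3 in Schwann cells, 6 and 4 at day 5, then 6 and 4 on day 7, with medians of 0.46, 0.15 and 0.07. Gpc1, a glypican whose heparan sulfate binds Slit, rose from 5.09 and 5.44 FPKM to 133 and 146 on day 3, 86.2 and 95.6 on day 5 and 50.3 and 58.0 on day 7 (4.78, 4.09 and 3.32). The syndecan Sdc1 rose from 0.25 and 0.25 FPKM to between 2.14 and 3.27 (3.25, 3.45 and 3.08), and the kinases Pak1 (2.14 at day 3) and Abl2 (1.11 at day 3) rose too. Srgap3, a GTPase-activating protein that binds Robo, fell from 15.7 and 11.9 FPKM to 2.38 and 2.65, then 4.48 and 3.42, then 4.95 and 5.35 (-2.41, -1.77 and -1.45). In whole nerve 7 of the 14 were higher and 4 lower at day 3.

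Of 15 tested genes of netrin, Unc5 and neogenin signaling, 6 were higher and 5 lower at day 3 in Schwann cells, 5 and 5 at day 5, then 6 and 2 on day 7, with medians of 0.17, -0.03 and -0.09. Draxin, a secreted ligand of netrin receptors, was at 0.04 and 0.04 FPKM in uncrushed cells, 1 count in each library, and at 7.19 and 8.04, then 5.33 and 6.4, then 2.79 and 3.81 after crush. The count ratio was 194 at day 3 (95% counting interval 53.6 to 1609), 139 at day 5 and 75.4 at day 7. Flrt3, an Unc5 ligand, rose from 80.4 and 73.9 FPKM to between 189 and 299 (1.73, 1.88 and 1.5). Bcar1 and Trio, which act inside the cell, rose by 1.01 and 1.04 at day 3. Ablim1, an actin-binding protein, fell from 11.7 and 10.1 FPKM to between 0.42 and 0.59 (-4.56, -4.49 and -4.35). In whole nerve 6 of the 15 were higher and 4 lower at day 3.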

How the data were processed

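Symbols were taken from the gene identifiers of the deposited tables, and groups and replicate numbers from the labels. Members and gene lists were chosen with earlier results of these data known. The authors amplified the RNA, mapped reads to Rnor_6.0 with STAR, per the submitters' processing notes, and used RSEM to estimate expected counts per gene, which were deposited without normalization, and 34 of the 39 members had whole expected counts (within 0.005) in all 16 libraries. The deposited FPKM and TPM were made by the authors in the same step, and TPM was not used. A table of the authors with 8 columns of FPKM that name no sample and their gene modules was not used. The amplified cDNA carries no molecular identifiers, so counting intervals cover counting error only, and they are exact conditional binomial intervals on counts scaled by TMM library sizes.

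Expected counts were rounded and tested with edgeR 4.0.16 in R 4.3.3 (TMM, filterByExpr, quasi-likelihood F test, Benjamini-Hochberg adjustment at 0.05). Schwann cells, whole nerve and, for comparisons of tissues, all 16 libraries were each fitted with 1 coefficient per group. SEs were taken as the absolute log2 fold change over the root of the F statistic. An exact permutation test of 2 against 2 cannot go below 0.333 and was not used. Alternatives were DESeq2 1.42.0, upper quartile normalization, no filter, at least 10 counts in every library of 1 group, a replicate block, only the groups compared, all 16 libraries in 1 fit, and each library left out. Members called in at least 1 comparison of a day with uncrushed and reaching a mean of 1 FPKM in at least 1 group were given by library. Partner genes were named where called in Schwann cells at all 3 days with an absolute log2 fold change of at least 1 at day 3. Efnb3, Ephb2, Unc5d and others outside that rule are named for completeness. A fold against 0 counts is a bound at 3 counts per library.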

Additional observations from a re-analysis of the deposited data

Results flagged for a closer look

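The injury effect, as a log2 fold change of the day against uncrushed, differed between Schwann cells and whole nerve at an adjusted p below 0.05 by edgeR's quasi-likelihood test for 10 members at day 3 and 12 at day 7. The values below are the effect in Schwann cells minus that in whole nerve. They include any change in the cell make-up of whole nerve. At day 3 Epha4 (2.89), Slit2 (2.26) and Ntn4 (4.63) lay above 0. Efna1 (-1.56), Efnb1 (-1.34), Epha1 (-1.96), Epha3 (-1.55), Ephb3 (-1.48), Robo1 (-2.83) and Unc5b (-0.85) lay below. At day 7 Epha4 (3.14), Slit2 (2.07), Epha7 (1.62), Ntn4 (3.90), Efna4 (3.49), Unc5d (6.89) and Dcc (3.67) lay above, and Epha1 (-3.42), Epha3 (-2.49), Epha5 (-1.78), Ephb2 (-1.06) and Ephb3 (-1.28) below. The values of Ntn4, Efna4, Unc5d and Dcc rest on 1 to 4 counts in all in uncrushed Schwann cells and are no bound. The calls of Epha1 and Unc5b at day 3 and Dcc at day 7 were each lost in 8 or more of 14 alternative fits. The call of Efna1 at day 3 was lost in 6, that of Efna4 at day 7 in 5, that of Ephb2 at day 7 in 5 (-0.63 without Schwann cell uncrushed replicate 1) and that of Epha3 at day 3 in 3.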

How the results depend on the processing

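Of 156 recomputed counts of called members, 155 lay within 1.5 times the count given above. The exception was the interaction at day 3, where leaving out 1 library at a time gave 6 to 10 members, 6 without nerve uncrushed replicate 1. Of 212 calls of single members, 157 held in every alternative run for them and 55 were lost in at least 1, and none reversed. Leaving out 1 library ended 149 of 936 recomputed calls, DESeq2 17 of 212, the fit of only the groups compared 14 of 207, all 16 libraries in 1 fit 9 of 107, no filter 6 of 212, upper quartile normalization 3 of 212 and the filter of 10 counts 1 of 211. Leaving out 1 library where a group keeps 1 assumes that the lone library varies like the others. Same-numbered libraries did not deviate together (correlations of -0.0576 to 0.0838 within tissues and -0.0199 to 0.00248 across them), so the numbers were not taken as pairs. With the number as a replicate block, all 14 counts stayed within 1.5 times (18 at day 3 in Schwann cells, as without the block), and 2 calls were lost, Epha1 in the interaction at day 3 and Ephb3 between tissues at day 5. Upper quartile normalization moved the median of all genes by 0.135 and 0.101 in the comparison of tissues at days 5 and 7. Depth limits members near 3 counts per library, in which a fold of 10 can rest on a few fragments.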
